A study of Homo sapiens with 6 samples.

Results

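The SOCS, CISH and PIM genes are a set that includes transcripts which cytokine receptors switch on through JAK kinases and STAT transcription factors. The set held 10 genes, chosen by name from the deposited table: SOCS1 to SOCS7, CISH, PIM1 and PIM2. All 10 names were found once each among 61541 Ensembl genes. They were measured by bulk RNA-seq in H9, an established human cell line of cutaneous T-cell lymphoma that the labels give as wild type. Libraries fell into cells given vehicle (DMSO, 3 libraries) and cells given the CDK9 inhibitor AZD4573 (3 libraries). The labels give 4 h for AZD4573 and no time for DMSO, and the figure legends of the study give 50 nM. CDK9 is the kinase that releases paused RNA polymerase II into elongation. Nothing in the labels says that the libraries of a group came from separate cultures, so that the p-values below measure the spread between these libraries, which may be technical.

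When a cytokine binds its receptor, JAK kinases phosphorylate STAT proteins, which enter the nucleus and activate genes. CISH and several SOCS genes are among the first of these targets. Their proteins carry an SH2 domain, which binds phosphorylated tyrosines of receptors or JAKs, and a SOCS box, which recruits a ubiquitin ligase, so that they close a negative feedback loop. The PIM kinases are also induced by STATs in lymphoid cells, but act downstream as serine/threonine kinases that promote survival and growth. PIM kinases need no activating phosphorylation, so that their activity depends largely on how much of them is made.

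The promoters of the member with the largest rise (CISH) and of the member with the largest fall (PIM1) are shown because they differ in the motif that STAT proteins bind. Both run from 250 bases before to 50 bases after the annotated start, 5′ to 3′ on the strand of the gene, and come from RefSeq on GRCh38.p14. Capitals mark matches to TTCNNNGAA, the core of the STAT site. The CISH window lies at chr3:50611725-50612024 on the minus strand, and the PIM1 window at chr6:37169902-37170201 on the plus strand.
CISH: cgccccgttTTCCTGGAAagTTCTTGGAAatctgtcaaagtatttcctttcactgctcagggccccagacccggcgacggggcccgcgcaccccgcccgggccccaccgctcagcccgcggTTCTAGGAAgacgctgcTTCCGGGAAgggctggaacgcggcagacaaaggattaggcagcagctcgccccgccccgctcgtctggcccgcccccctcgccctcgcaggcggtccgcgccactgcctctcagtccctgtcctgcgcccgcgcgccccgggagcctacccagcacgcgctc
PIM1: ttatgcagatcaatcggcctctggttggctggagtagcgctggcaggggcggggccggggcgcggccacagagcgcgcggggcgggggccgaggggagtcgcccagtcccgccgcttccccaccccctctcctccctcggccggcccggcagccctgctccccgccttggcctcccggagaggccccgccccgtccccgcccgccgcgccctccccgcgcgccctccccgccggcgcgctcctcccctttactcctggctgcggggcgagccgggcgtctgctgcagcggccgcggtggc
The CISH window held 4 matches, which began 241, 230, 129 and 112 bases before the start. The PIM1 window held none. RefSeq promoters were at hand for 7 members (8 windows, since SOCS3 has 2), and the other members are SOCS2, SOCS5 and SOCS7. Among these 8 windows only that of CISH held a match, whereas 7.66% of the 35116 promoters of the table held at least 1. Neither SOCS3 window (78360876 to 78361175 and 78359618 to 78359917, minus strand) covers the start of its gene model, 78360077. The bases around that start were not searched. Both strands were searched, and the motif reads the same on each. The form with 4 instead of 3 free bases, which STAT6 prefers, was in no member window and in 6.44% of all promoters. The GATA factor motif AGATAA was also in none, against 10.3% of all promoters. The same held for the TATA box core TATAAA, against 11.5%. A match is a string of letters, and no binding was measured here.

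Total counts per library ranged from 70367303 to 76571157 with DMSO and from 52101868 to 63795185 with AZD4573. Levels are given as CPM, a gene's counts scaled to a common library total. Fold changes come from edgeR, which adjusts the totals further by the TMM method, and are on the log2 scale. T-cell markers were present: the summed level of the 12 markers was 1680 to 1700 CPM with DMSO and 2030 to 2050 CPM with AZD4573, and of 11 tested, 2 were lower and 8 higher, which became 7 and 2 with the scaling to mitochondrial mRNAs described below. CD2 was near 0 (0.109 ± 0.057 CPM with DMSO, SD, n = 3) and CD4 was low (3.96 ± 0.222 CPM). Of 16 markers of other cells, 9 passed the filter on low counts, and their sum was 234 to 253 CPM with DMSO and 238 to 247 CPM with AZD4573. Most of that sum was EPCAM, which went from 161 ± 9.02 to 130 ± 3.25 CPM, and CD79A, which went from 59.9 ± 2.57 to 90.2 ± 3.89 CPM, while CD8B and HBB had 0 counts in each library. Of the 9, 2 were lower and 3 higher, against 4 and 0 with mitochondrial scaling. At an adjusted p under 0.05 (edgeR), 37.4% of all genes tested were lower and 37.3% higher. The part of these markers in the results was not tested. In bulk samples, fewer cells of a type and less RNA per cell cannot be told apart.

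The scaling matters for reading the directions given here, since some genes change direction with it and others do not. The 13 mRNAs of the mitochondrial genome, which RNA polymerase II does not make, took 3.04% to 3.22% of the counts with DMSO and 4.67% to 4.98% with AZD4573. Of 17678 genes tested, 6606 passed an adjusted p of 0.05 downward and 6596 upward, against 11878 and 2144 after scaling to these mRNAs. All genes together had a median log2 fold change of 0.03, which became -0.71 under that scaling. Changes below are relative to the bulk of transcripts unless this scaling is named. With it they are relative to the mitochondrial mRNAs, whose amount per cell was not measured here.

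Of the 10 genes, 9 passed the filter on low counts, and SOCS1 did not. At an adjusted p under 0.05 (edgeR's quasi-likelihood test, Benjamini-Hochberg over all genes), 4 fell (PIM1, PIM2, SOCS2 and SOCS6) and 4 rose (CISH, and SOCS3, SOCS4 and SOCS7, which turn lower when scaled to the mitochondrial mRNAs). By that rule 37.4% of all genes tested fell and 37.3% rose, so that changes as such were as common elsewhere. With a fold change of at least 1.5 added, the 4 falls remained and CISH was the only rise, where 23.7% of all genes were lower and 22.7% higher. SOCS4, with a 1.47-fold rise, lay just below this limit and passed it without DMSO replicate 3, or without AZD4573 replicate 1, which gave 2 rises in place of 1. SOCS6, with a 1.52-fold fall, lay just above it and missed it without DMSO replicate 1 or AZD4573 replicate 3, which left 3 falls. A filter of at least 10 counts in every library also moved both across the limit. In each of the 4 that fell, every AZD4573 library lay below every DMSO library, as in 42.9% of all genes. CISH, SOCS3 and SOCS4 were separated in the upward direction, as in 34.2% of all genes. The median log2 fold change of the 9 genes was -0.08, beside 0.03 for all genes, and their values ran from -1.19 to 1.07. Scaled to the mitochondrial mRNAs, 8 of the 9 were lower and CISH was the 1 that was higher. Of all 17678 genes tested, 11878 were lower and 2144 higher under that scaling.

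**Figure D1:**
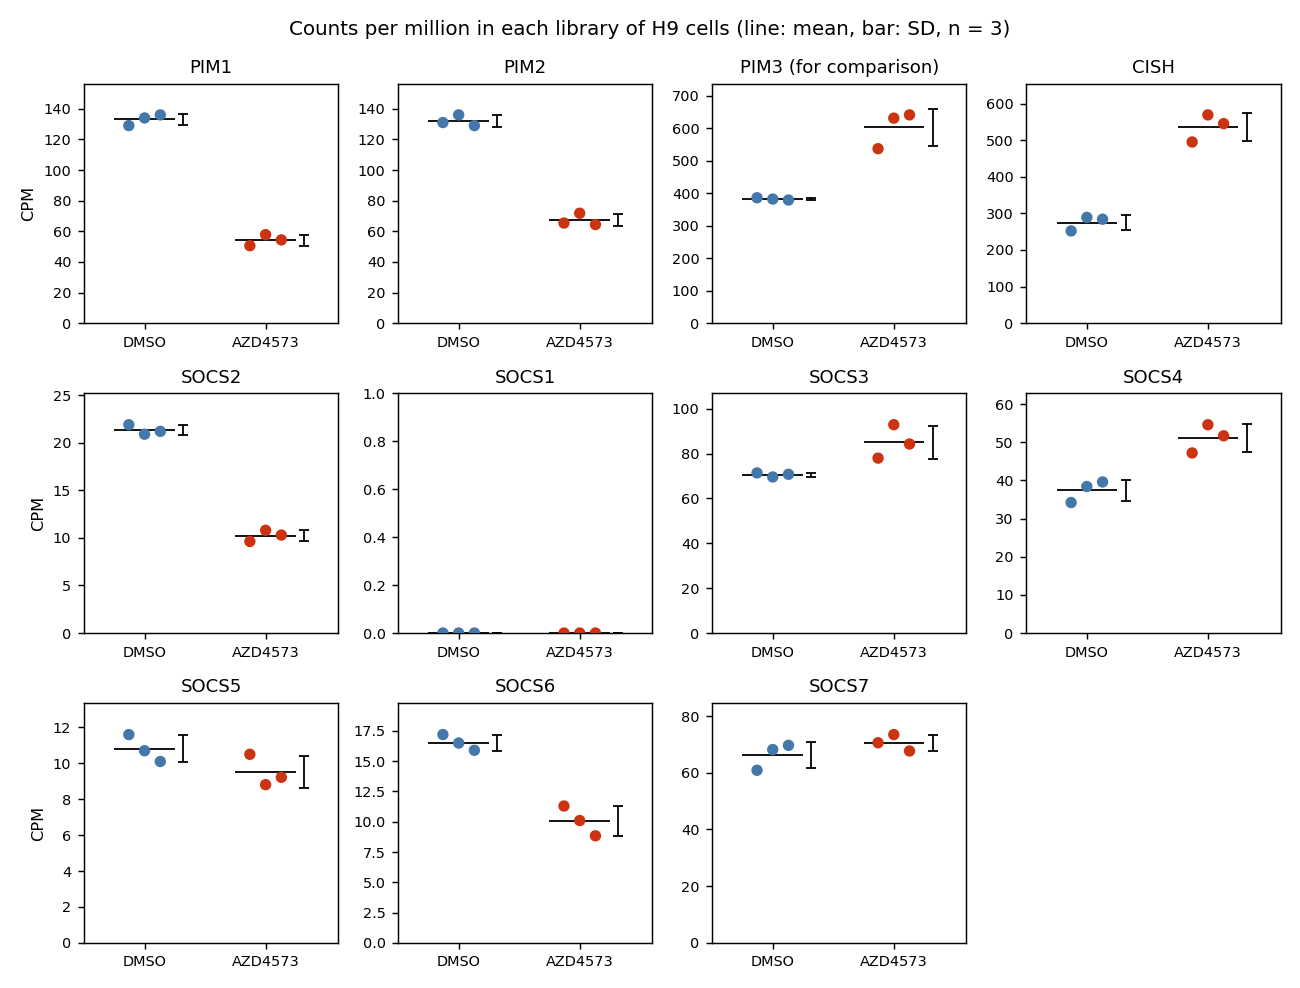
Each panel plots CPM (vertical axis from 0, scales differ) of one of the 10 genes, or of PIM3 for comparison, in the 3 DMSO (blue) and 3 AZD4573 (red) libraries, with the group mean as a line and the SD as a bar. PIM1, PIM2, SOCS2 and SOCS6 drop without overlap, CISH rises from at most 289 to at least 495 CPM, and SOCS1 is at 0 in all 6 libraries.

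CISH, an SH2 protein that binds activated cytokine receptors and is a classical STAT5 target, had the highest level per kilobase of merged exons of the 10 genes and the largest rise. CISH (ENSG00000114737, chromosome 3 of GRCh38, 50606489 to 50611774, minus strand, 3 exons) was at 252, 289 and 284 CPM with DMSO and at 495, 569 and 545 CPM with AZD4573. The groups did not overlap, and the lowest AZD4573 library was well above the highest DMSO library. On the log2 scale CISH rose by 1.07 (standard error 0.0616, edgeR adjusted p = 3.2e-09), a 2.10-fold rise that exceeded that of 85.6% of the genes tested. It was the only member to stay higher after scaling to the mitochondrial mRNAs, with a log2 fold change of 0.33 (edgeR adjusted p = 6.89e-05). Of its 5056 exon bases, 218 are shared with MAPKAPK3 on the other strand, and reads from those bases were counted without regard to strand. MAPKAPK3 itself had 7358 to 8818 counts with DMSO and 5066 to 6127 with AZD4573. These counts are not scaled to the library totals, which were lower with AZD4573. What the shared bases add to the level of CISH was not tested.

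SOCS2, the closest relative of CISH and best known as a brake on growth hormone signalling, fell. SOCS2 (ENSG00000120833, chromosome 12, 93569814 to 93583487) was at 21.9, 20.9 and 21.2 CPM with DMSO and at 9.63, 10.8 and 10.3 CPM with AZD4573. All AZD4573 libraries were near 10 CPM and far from the DMSO libraries. On the log2 scale this was a change of -0.95 (standard error 0.0711, edgeR adjusted p = 3.9e-08), a 1.94-fold fall. SOCS2 shares 277 exon bases with SOCS2-AS1 on the opposite strand, which had 92 to 124 counts with DMSO and 87 to 107 with AZD4573, compared with 1472 to 1680 and 502 to 657 counts of SOCS2.

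SOCS3, which blocks JAKs bound to receptors of the IL-6 type, was the second most abundant of the SOCS and CISH genes per length. SOCS3 (ENSG00000184557, chromosome 17, 78356778 to 78360077) was at 71.4, 69.6 and 70.8 CPM with DMSO and at 78.0, 92.9 and 84.3 CPM with AZD4573. The AZD4573 libraries were all higher, but spread over a wider range than the DMSO libraries. On the log2 scale SOCS3 rose by 0.37 (standard error 0.062, edgeR adjusted p = 9.5e-05), which reversed to -0.37 (edgeR adjusted p = 7.7e-05) when scaled to the mitochondrial mRNAs.

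SOCS1, which inhibits JAKs directly and is the main brake on interferon-gamma signalling, was not detected. SOCS1 (ENSG00000185338, chromosome 16, 11254417 to 11256204, minus strand, 2 exons) had 0 counts in each of the 6 libraries. A count of 0 allows up to 0.0392 to 0.0426 CPM in the DMSO libraries and 0.047 to 0.0576 CPM in the AZD4573 libraries, taken as 3 counts of the total, and this covers counting error only. Its exons share no base with another annotated gene. No fold change can be given, and the planned ratio of SOCS1 to SOCS3 could not be formed.

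The other SOCS genes have longer proteins and wider roles, among them control of EGF receptor and KIT signalling. SOCS6 (ENSG00000170677, chromosome 18, 70289045 to 70330199) fell from 17.2, 16.5 and 15.9 CPM with DMSO to 11.3, 10.1 and 8.84 CPM with AZD4573. Its groups did not overlap, and the log2 fold change was -0.61 (standard error 0.0868, edgeR adjusted p = 2.4e-05), a 1.52-fold fall. SOCS4 (ENSG00000180008, chromosome 14, 55027230 to 55049489) was at 34.2, 38.4 and 39.6 CPM with DMSO and at 47.2, 54.6 and 51.7 CPM with AZD4573. All AZD4573 libraries were higher, with a log2 fold change of 0.56 (standard error 0.068, edgeR adjusted p = 5.3e-06), which reversed to -0.18 (edgeR adjusted p = 0.0266) when scaled to the mitochondrial mRNAs.

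SOCS7 (ENSG00000274211, chromosome 17, 38351844 to 38405593) was at 60.9, 68.2 and 69.7 CPM with DMSO and at 70.6, 73.5 and 67.7 CPM with AZD4573, so that the groups overlapped. Its log2 fold change of 0.20 passed the test (edgeR adjusted p = 0.0055), but was 0.09 (edgeR adjusted p = 0.177) with library size as the only scaling and -0.54 with mitochondrial scaling. SOCS5 (ENSG00000171150, chromosome 2, 46698952 to 46780245), which also limits STAT6 signalling from the IL-4 receptor, was at 11.6, 10.7 and 10.1 CPM with DMSO and at 10.5, 8.81 and 9.22 CPM with AZD4573. The groups overlapped and the log2 fold change of -0.08 (standard error 0.0903) did not pass the test (edgeR adjusted p = 0.41). Scaled to the mitochondrial mRNAs it was -0.82 (edgeR adjusted p = 2.65e-06).

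PIM1 and PIM2, the kinases first found as insertion sites of leukaemia viruses in mouse lymphomas, fell together. PIM1 (ENSG00000137193, chromosome 6, 37170152 to 37175428, 6 exons) was at 129, 134 and 136 CPM with DMSO and at 50.6, 57.8 and 54.4 CPM with AZD4573. The highest AZD4573 library was far below the lowest DMSO library. On the log2 scale the change was -1.19 (standard error 0.0547, edgeR adjusted p = 4.6e-10), a 2.28-fold fall, and 10.5% of the genes tested had a lower value. PIM2 (ENSG00000102096, chromosome X, 48913182 to 48919024, 6 exons) went from 131, 136 and 129 CPM with DMSO to 65.4, 71.8 and 64.4 CPM with AZD4573. Its groups were as clearly apart, with a log2 fold change of -0.87 (standard error 0.0518, edgeR adjusted p = 4.3e-09), a 1.83-fold fall. Neither gene shares exon bases with another, and both stayed lower under mitochondrial scaling, at -1.93 and -1.61.

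PIM3, the third kinase of the family and not among the 10 genes, went the other way. PIM3 (ENSG00000198355, chromosome 22) was at 386, 382 and 379 CPM with DMSO and at 537, 631 and 641 CPM with AZD4573. PIM3 thus rose by 0.76 on the log2 scale (standard error 0.0636, edgeR adjusted p = 1.2e-07), and 0.02 (edgeR adjusted p = 0.773) with mitochondrial scaling.

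**Figure D2:**
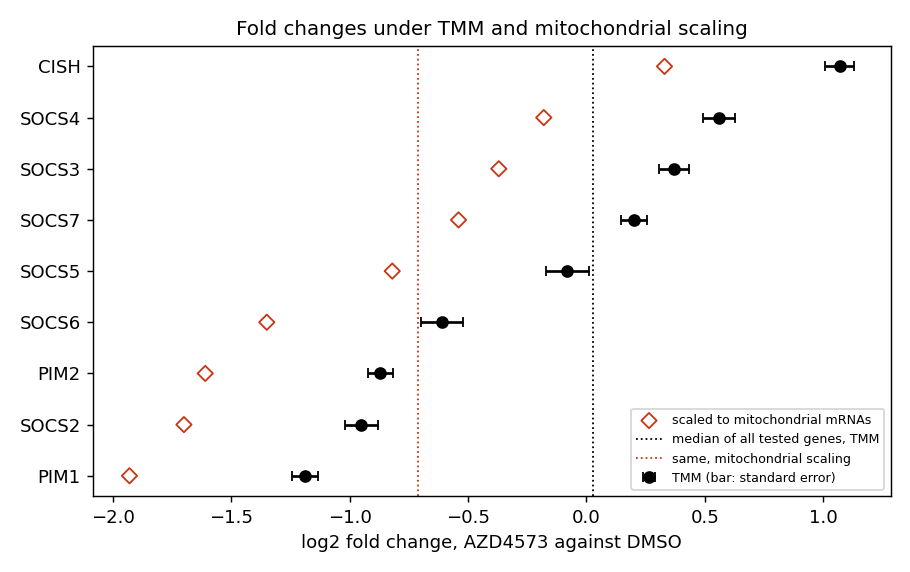
The horizontal axis gives the log2 fold change of AZD4573 against DMSO for the 9 tested genes, with TMM (black, bar for the standard error) and after scaling to the mitochondrial mRNAs (open red diamonds). Dotted lines mark the median of all tested genes under each scaling, 0.03 and -0.71. CISH lies above 0 under both, while SOCS3, SOCS4 and SOCS7 cross from positive to negative.

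Ratios of relatives within a library do not depend on the scaling. Members of a family were paired as CISH with SOCS2, SOCS4 with SOCS5, SOCS6 with SOCS7, and PIM1 with PIM2. The log2 ratio of CISH to SOCS2 counts was 3.52, 3.79 and 3.74 with DMSO and 5.68, 5.72 and 5.72 with AZD4573, a 4.07-fold rise of the ratio. The log2 ratio of SOCS4 to SOCS5 rose by 0.64 on average, from 1.55, 1.84 and 1.97 to 2.17, 2.63 and 2.49. That of SOCS6 to SOCS7 went from -1.82, -2.05 and -2.13 to -2.64, -2.86 and -2.94, a difference of -0.81. That of PIM1 to PIM2 went from -0.02, -0.02 and 0.08 to -0.37, -0.31 and -0.24, a difference of -0.32, so that PIM1 fell more than PIM2. The groups were apart in all 4 ratios, and how often this held for other gene pairs was not computed. Among single genes, 42.9% of all tested were separated downward and 34.2% upward in CPM, so that such separation is common in these data. The two-sided exact permutation test gave p = 0.1 for each, also after Benjamini-Hochberg adjustment over the 4, which is the smallest p that 3 against 3 libraries can give.

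**Figure D3:**
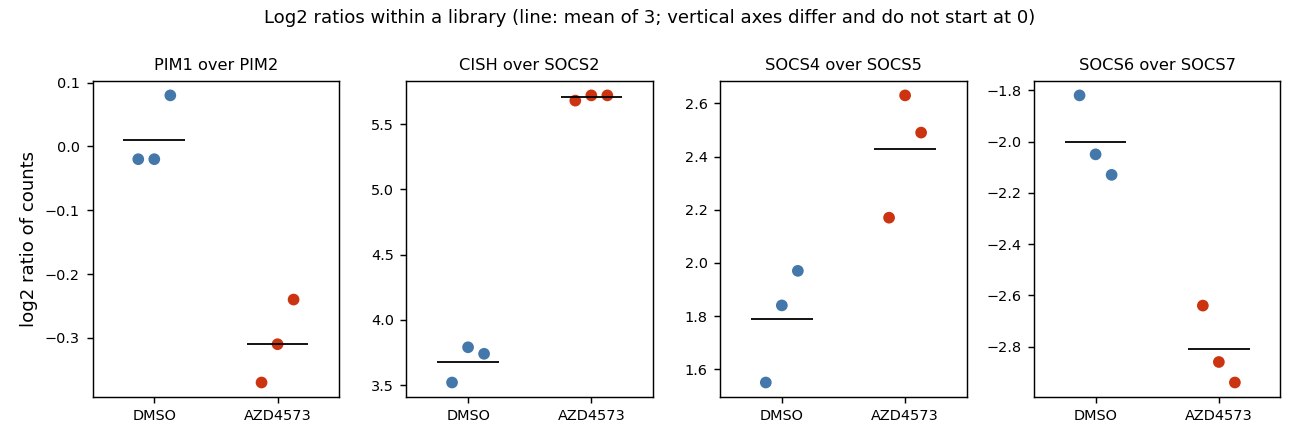
Each panel plots the log2 ratio of counts of a pair of related genes in the 3 DMSO (blue) and 3 AZD4573 (red) libraries, with group means as lines; the vertical axes differ and do not start at 0. No ratio overlaps between groups (the share among other gene pairs was not computed), and the largest shift, 2.02, is that of CISH over SOCS2.

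Levels of different genes were compared per kilobase of merged exons. With DMSO the order was CISH (54.4 ± 4.01 CPM per kb, SD, n = 3), PIM2 (47.9 ± 1.34), PIM1 (43.9 ± 1.31), SOCS3 (25.8 ± 0.33), SOCS7 (7.36 ± 0.526), SOCS4 (5.31 ± 0.403), SOCS2 (3.30 ± 0.0808), SOCS6 (2.83 ± 0.114) and SOCS5 (1.44 ± 0.105), with SOCS1 at 0. No neighbours in this order overlapped, although CISH (lowest library 49.8) and PIM2 (highest library 49.4) nearly touched. With the length of the longest transcript in place of merged exons, CISH and PIM2 changed places, as did SOCS4 and SOCS2. With AZD4573, CISH stood at 106 ± 7.49 CPM per kb and SOCS3 at 31.1 ± 2.74, above PIM2 (24.3 ± 1.46) and PIM1 (17.9 ± 1.18). With the longest transcript as length, SOCS3 (31.1 ± 2.74) and PIM2 (32.4 ± 1.94) overlapped, and both stayed above PIM1 (20.1 ± 1.32).

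The make-up of each family shifted toward its most abundant gene. Per length, CISH made up 54.1% ± 1.69 (SD, n = 3) of the summed level of CISH and SOCS1 to SOCS7 with DMSO and 67.6% ± 0.591 with AZD4573. The share of SOCS3 went from 25.7% ± 1.43 to 19.8% ± 0.449, although its own level was higher, and that of SOCS2 from 3.29% ± 0.227 to 1.01% ± 0.0111. Among the PIM kinases, PIM3 went from 65.5% ± 0.643 to 86.6% ± 0.908, PIM2 from 18.0% ± 0.406 to 7.72% ± 0.663 and PIM1 from 16.5% ± 0.515 to 5.67% ± 0.246. These shares were described without a test. The summed levels were 95.4 to 103 CPM per kb with DMSO and 146 to 167 with AZD4573 for the SOCS and CISH genes, and 264 to 267 and 285 to 333 for the PIM kinases. With the longest transcript as length, CISH rose from 52.1% to 66.5% and PIM3 from 61.7% to 84.5%.

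**Figure D4:**
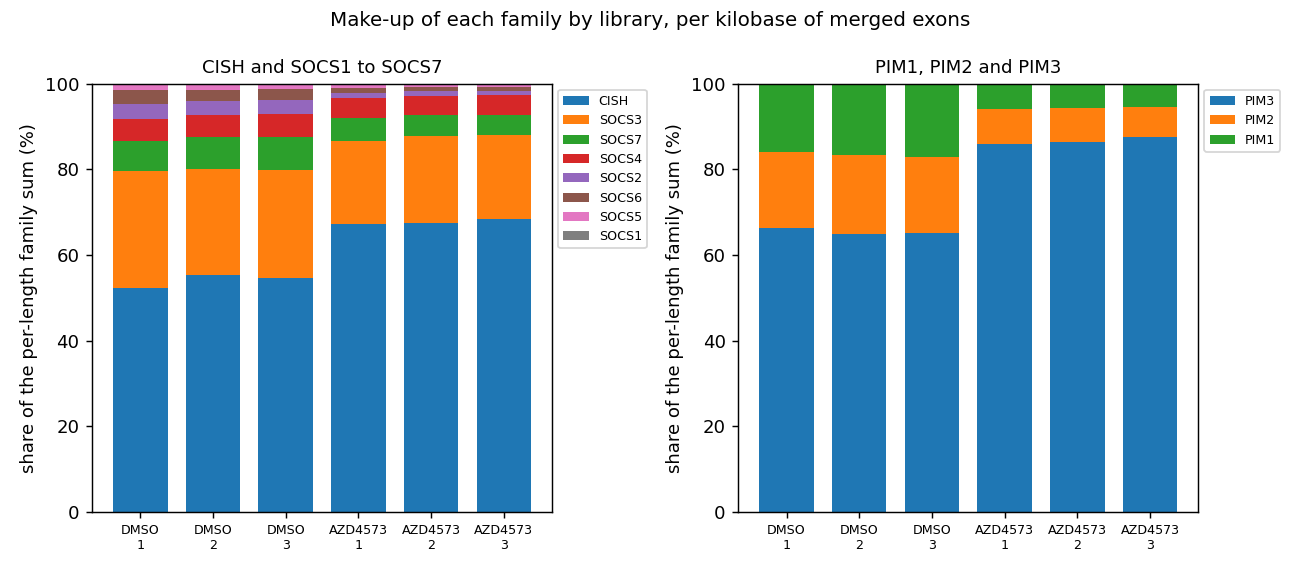
Stacked bars give each gene's share (%) of the per-length sum of its family in each of the 6 libraries. The CISH segment grows from a mean of 54.1% to 67.6% and the PIM3 segment from 65.5% to 86.6%, while the mean shares of all other detected genes shrink.

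Genes that fell and genes that rose overlapped in span. PIM1 (5277 bases from first to last exon), PIM2 (5843) and CISH (5286) are of nearly the same span, and SOCS3 spans 3300 bases, whereas SOCS2 (13674), SOCS4 (22260), SOCS6 (41155), SOCS7 (53750) and SOCS5 (81294) are longer. Over all tested protein-coding genes, the median log2 fold change was 0.06 for 2669 genes spanning under 10 kb and -0.10 for 10754 longer genes.

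The genes around this feedback loop were read from the same fit, as 6 lists. The counts below stand beside those of all genes tested, of which 37.4% fell and 37.3% rose at an adjusted p under 0.05. With mitochondrial scaling, 11878 of all 17678 genes were lower and 2144 higher, with a median log2 fold change of -0.71. Of 11 JAK and STAT genes, 3 fell and 6 rose (median log2 fold change 0.19). STAT4, which relays IL-12 signals, fell by 0.91 and JAK2 fell by 0.49 on the log2 scale (edgeR adjusted p = 3.6e-07 and 0.00032). STAT2, of the type I interferon response, and TYK2 rose by 0.56 each (edgeR adjusted p = 9e-06 and 5.4e-07), and both reversed to -0.18 with mitochondrial scaling, under which all 11 genes were lower. Of 20 cytokine receptor genes, 12 fell and 4 rose (median -0.48), which became 19 and 1 with mitochondrial scaling. IFNGR1, a chain of the interferon-gamma receptor, went from 21.6 ± 0.939 to 5.06 ± 1.27 CPM (n = 3, SD), which is -2.00 on the log2 scale. IL2RG, the common gamma chain, rose from 357 ± 8.46 to 491 ± 8.01 CPM, a log2 fold change of 0.56 that became -0.18 with mitochondrial scaling. IL7R (-2.36, with 41 to 48 counts under DMSO and 4 to 8 under AZD4573) and IL12RB2 (2.08, with 8 to 12 and 23 to 39 counts) changed more, at low levels.

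The partners through which the SOCS box recruits ubiquitin ligase activity split: 3 of 9 fell and 4 rose (median 0.05), while all 9 were lower with mitochondrial scaling. The scaffold proteins CUL2 (-0.96) and CUL5 (-0.85) were the largest falls, and the adaptor ELOB (0.44) and the ubiquitin-like modifier NEDD8 (0.34) the largest rises, which became -0.30 and -0.40 with mitochondrial scaling. Of 12 other negative regulators of cytokine signalling, 9 fell and 3 rose (median -0.39), which became 10 and 2 with mitochondrial scaling. PTPN2, a phosphatase of JAKs and STATs, went from 40.9 ± 0.632 to 14.7 ± 1.49 CPM (SD, n = 3; log2 fold change -1.37), and PIAS4, a SUMO ligase that binds STATs, had -1.02. PTPRC (CD45; 1.08) and SH2B3 (an adaptor that restrains JAK2; 0.89) rose, and stayed higher at 0.34 and 0.15 with mitochondrial scaling.

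Genes outside the set that STATs are known to activate went both ways, as the SOCS, CISH and PIM genes did. Of 14 tested of 15, 5 fell and 8 rose (median 0.19), which became 10 and 3 with mitochondrial scaling. DUSP5, a phosphatase of ERK, had a log2 fold change of -2.44 and the cytokine OSM, a relative of IL-6, had -1.37. BCL6, a transcriptional repressor, went from 12.5 ± 0.446 to 50.0 ± 3.81 CPM (n = 3, SD), which is 2.11 on the log2 scale. BCL2L1, which encodes the survival protein BCL-XL, went from 854 ± 20.1 to 2050 ± 150 CPM (log2 fold change 1.37). Both remained higher with mitochondrial scaling, at 1.37 and 0.63. Of 11 genes that encode PIM substrates, 3 fell and 4 rose (median 0.09), while 10 were lower and 0 higher with mitochondrial scaling. FOXO1 (-1.84) and CDC25A (-0.59) fell, and CDKN1B (0.59) and AKT1S1 (0.37) rose, which became -0.15 and -0.37 with mitochondrial scaling. With TMM, the fits of all named genes in these lists had an edgeR adjusted p of at most 0.00037. With mitochondrial scaling, CDKN1B did not pass the test (edgeR adjusted p = 0.058). STAT2 (0.0445), SH2B3 (0.0191) and TYK2 (0.0124) passed it less clearly than with TMM.

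**Figure D5:**
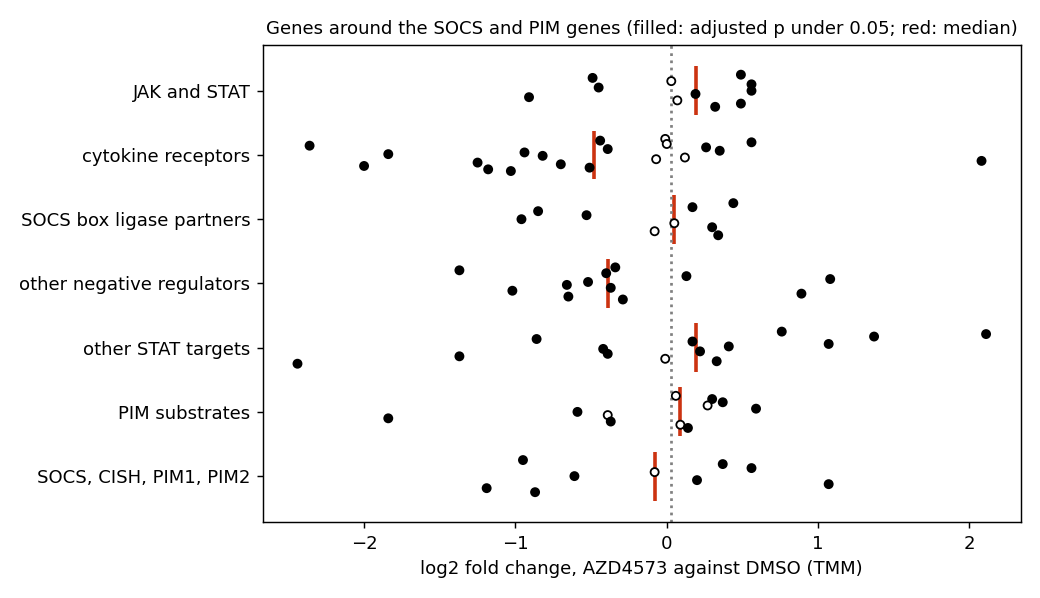
Each point is a gene at its log2 fold change (horizontal axis, TMM), by list; filled points had an adjusted p under 0.05, red lines are list medians and the dotted line is the median of all genes, 0.03. Cytokine receptors (median -0.48) and other negative regulators (median -0.39) lie mostly to the left, and the members spread on both sides.

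Genes whose log2 CPM followed that of PIM1 most closely over the 6 libraries were SERTAD2 (Pearson's r = 0.9999), FGFRL1 and HNRNPD (0.9996 each). Those closest to CISH were MAMDC4, RASGRP2 (0.9998 each) and ZNF507 (0.9997). The libraries form 2 groups, so that r mostly reflects the shift between them: of 9068 genes compared, 874 had an r over 0.99 with PIM1 and 409 with CISH.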

How the data were processed

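Expected counts per gene were deposited by the authors as whole numbers, without normalization. Per the supplemental methods and the submitters' processing notes, reads were trimmed with Cutadapt 2.3, aligned to GRCh38 with STAR 2.7.8a and assigned to genes with RSEM 1.3.3 at default parameters, which ignore strand. On RNA selection the sources differ, since the labels name poly(A) and the supplemental methods removal of rRNA.

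All 6 libraries were used. The 5 rows for Cre and fluorescent proteins, all at 0 counts, were left out. In R 4.3.3, edgeR 4.0.16 (filter with minimum count 10, TMM, quasi-likelihood test, Benjamini-Hochberg adjustment over 17678 genes) compared AZD4573 with DMSO, and DESeq2 1.42.0 was an alternative. The procedure was tested on simulated data. Libraries of a group were not copies of each other: chi-square values divided by their degrees of freedom were 5.59 to 21.2. Ratios of counts used a pseudocount of 0.5. Exon lengths, positions and overlaps came from GENCODE release 44 and promoters from RefSeq (GRCh38.p14). Errors are SD over libraries. From each list of related genes, the 2 largest falls and rises with an adjusted p under 0.05 were named; for likeness, the 3 genes closest to the members with the largest fall and rise, among genes with a symbol and at least 10 CPM. Members and lists were chosen with earlier results of these data known.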

Additional observations from a re-analysis of the deposited data

How the results depend on the processing

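Scaling changed the members' calls most. Scaled to the mitochondrially encoded mRNAs, 8 members passed an adjusted p of 0.05 (edgeR) downward and 1 upward, and 0 were higher with a fold change of at least 1.5. Of all 17678 genes tested, 11878 passed downward and 2144 upward. The log2 fold change reversed with this scaling for SOCS3 (-0.37), SOCS4 (-0.18) and SOCS7 (-0.54), which follows the shift of all genes. The median of the 9 genes became -0.82. At a fold change of at least 2, a stricter rule by construction, 1 member was lower (PIM1) and 1 higher (CISH). With at least 10 counts in every library, 2 members rose (SOCS4 joined CISH) and 3 fell (SOCS6 dropped out) by at least 1.5-fold, and the cause was not tested. Leaving out each library in turn gave 1 to 2 such rises (2 without DMSO replicate 3 or AZD4573 replicate 1), 3 to 4 such falls (3 without DMSO replicate 1 or AZD4573 replicate 3), and 4 falls and 4 rises without the fold limit. RLE factors, no filter on low counts and DESeq2 changed no call of a member at an adjusted p under 0.05. With library size only, SOCS7 no longer passed. Of the recomputed values, 203 were rated the same, 9 moved further, 3 reversed, and 1 each passed or lost the threshold. A fold change was rated the same if it kept its direction and side of the threshold or stayed within its spread. A count of members was rated the same within a factor of 1.5, so that 3 in place of 4 was not rated as moved.

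The replicate numbers did not pair the libraries: the correlation of deviations from group means was -0.00854, 0.0699 and -0.0204 for numbers 1, 2 and 3, and 2 of 6 libraries correlated best with their own number. With the number as a replicate block, 4 members were lower and 4 higher, and the ratios differed by -0.32 (PIM1 over PIM2), 2.02 (CISH over SOCS2), 0.64 (SOCS4 over SOCS5) and -0.81 (SOCS6 over SOCS7), each with an exact sign-flip p = 0.25, the smallest that 3 pairs allow. The ratio of SOCS1 to SOCS3 gave no value under any alternative.

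With 3 libraries a group, exact tests of single ratios cannot go below p = 0.1. Counting without strand limits the values of CISH and SOCS2, and for SOCS1 the depth gives only an upper limit.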

Other observations

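The region around SOCS1 was examined after its counts of 0 were seen. SOCS1 lies within the span of RMI2, which is annotated on the opposite strand of chromosome 16 from 11249619 to 11381662. RMI2, a subunit of the complex that dissolves recombination intermediates, had 615 to 696 counts with DMSO and 577 to 673 with AZD4573. Of the 15 other protein-coding genes within 500 kb on either side, RMI2 included, 9 had at least 100 counts in every library, among them CLEC16A (740 to 860 counts with DMSO) and LITAF (424 to 430). The 4 with 0 counts in all 6 libraries were TNP2, PRM3, PRM2 and PRM1, genes of sperm chromatin that lie next to SOCS1 from 11267748 to 11281330. CIITA, the master regulator of MHC class II genes and itself induced by interferon-gamma, had 4373 to 5029 counts with DMSO and 3054 to 3351 with AZD4573. The counts of CIITA and RMI2 are not scaled to the library totals, which were lower with AZD4573, so that they give no direction. No measure of gene copies or methylation was analysed here, and the cause of the 0 counts was not tested.

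Pseudogenes named after a member took few reads. Of 8 in the table, 6 had 0 counts in each library, SOCS6P1 had 1 to 3 counts, and SOCS5P4 had 5 to 15 counts with DMSO and 1 to 6 with AZD4573, beside 524 to 891 counts of SOCS5.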
